A study of Mus musculus with 23 samples.

Results

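Imprinted genes that act on growth were followed in cells sorted from the mouse incisor. The 10 genes are H19, Meg3, Dlk1, Peg3, Peg10, Mest, Plagl1, Grb10, Ndn and Zim1. They were listed by name for their known imprinting and roles in growth, with no threshold on their levels. The list was made with earlier results of these data known. All 10 were found among the 54347 genes of the deposited table by their Ensembl identifiers. Libraries were made by Smart-seq2, a full-length cDNA method for small amounts of RNA, from the labial cervical loop of the lower incisor, the fold at the base of the ever-growing tooth that houses its epithelial stem cells. All mice were at postnatal day 2 and of the Sox2-GFP line, in which the endogenous Sox2 promoter drives green fluorescent protein. Sorting by fluorescence gave a Sox2-positive population, labelled as dental epithelial stem cells, and a Sox2-negative population of the remaining cells. Batch A held 6 Sox2-negative and 6 Sox2-positive libraries, and batch B held 4 Sox2-negative and 7 Sox2-positive libraries. The batches were separate days with different mice. The labels do not tie libraries to mice, so p-values measure the spread between libraries, which may be technical.

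Genomic imprinting is the silencing of a gene on the chromosome from 1 parent by DNA methylation laid down in the germ line. H19, Meg3, Zim1 and, in most tissues, Grb10 are expressed from the maternal chromosome, while Dlk1, Peg3, Peg10, Mest, Plagl1 and Ndn are expressed from the paternal one. Many imprinted genes are high in fetal mesenchyme and other growing tissues and fall after birth. The counts carry no parental allele, so imprinting itself was not measured, only the total level of each gene.

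The 10 genes lie on 5 chromosomes of the mouse genome (GRCm38, GENCODE release M21), several of them in shared imprinted clusters. On chromosome 7, H19 spans 142575529 to 142578143 on the minus strand, 72.6 kb from the growth factor gene Igf2. Also there, Zim1 (6671269 to 6696450) lies 7.44 kb from Peg3 (6703892 to 6730431), and Ndn, which has a single exon, spans 62346569 to 62350262. On chromosome 12, Dlk1 (109452823 to 109463336) lies 77.7 kb from Meg3 (109541001 to 109571726). Chromosome 6 carries Peg10 (4747306 to 4760517) and Mest (30723547 to 30748465), chromosome 10 carries Plagl1 (13060504 to 13131694), and chromosome 11 carries Grb10 (11930508 to 12038683). H19 and Meg3 are annotated as long noncoding RNAs and the other 8 as protein coding.

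H19, Meg3 and Mest also host microRNAs. Those of Meg3 (Mir770 and Mir1906-1) are not shown. Mature sequences from the RefSeq table (GRCm38.p6) are shown for H19 and Mest because these 2 hosts moved in opposite directions between the populations. The mir-675 hairpin lies in an exon of H19 and the mir-335 hairpin in an intron of Mest, and capitals mark the seed, the bases that pair with targets.

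miR-675-5p: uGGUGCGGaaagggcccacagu
miR-675-3p: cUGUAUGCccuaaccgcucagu
miR-335-5p: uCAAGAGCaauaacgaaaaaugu
miR-335-3p: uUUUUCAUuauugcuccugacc

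The 4 seeds differ from each other. The rows of the 2 microRNA genes held 0 counts in all 23 libraries, where 3 counts would amount to 0.314 to 1.30 CPM. CPM is a gene's count relative to the library total after TMM scaling, edgeR's correction for differences in library composition. Mature microRNAs lack the poly(A) tail that Smart-seq2 primes on, so only the host transcripts were measured.

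RefSeq promoter windows were found for 8 of the 10 genes, with 12 windows in all. The 250 bases upstream of the start are shown for 4 genes, of which Dlk1, Grb10 and Plagl1 were lower and Mest higher in Sox2-positive cells. Capitals mark CpG dinucleotides, the sites at which DNA methylation is carried. Sequences are 5′ to 3′ on the strand of the gene, from Dlk1 (chr12:109452573-109452822, plus), Grb10 (chr11:12037421-12037670, minus), Plagl1 (chr10:13090582-13090831, plus) and Mest (chr6:30737800-30738049, plus).

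Dlk1: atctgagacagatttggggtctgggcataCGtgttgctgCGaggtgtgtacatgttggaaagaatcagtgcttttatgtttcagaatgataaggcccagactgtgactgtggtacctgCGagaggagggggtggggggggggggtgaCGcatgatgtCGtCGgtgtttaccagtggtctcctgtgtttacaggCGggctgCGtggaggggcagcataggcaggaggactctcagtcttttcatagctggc
Grb10: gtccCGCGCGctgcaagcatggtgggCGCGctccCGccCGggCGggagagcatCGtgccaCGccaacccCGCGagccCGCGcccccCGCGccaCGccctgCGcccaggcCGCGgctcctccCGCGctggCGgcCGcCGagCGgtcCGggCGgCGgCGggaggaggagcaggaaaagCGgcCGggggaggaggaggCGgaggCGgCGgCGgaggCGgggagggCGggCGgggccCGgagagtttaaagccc
Plagl1: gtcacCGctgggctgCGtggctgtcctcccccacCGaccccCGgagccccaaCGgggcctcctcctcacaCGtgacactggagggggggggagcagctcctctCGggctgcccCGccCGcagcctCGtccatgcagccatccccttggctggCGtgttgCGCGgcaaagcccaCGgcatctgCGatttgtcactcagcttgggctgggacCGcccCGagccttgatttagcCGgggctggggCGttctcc
Mest: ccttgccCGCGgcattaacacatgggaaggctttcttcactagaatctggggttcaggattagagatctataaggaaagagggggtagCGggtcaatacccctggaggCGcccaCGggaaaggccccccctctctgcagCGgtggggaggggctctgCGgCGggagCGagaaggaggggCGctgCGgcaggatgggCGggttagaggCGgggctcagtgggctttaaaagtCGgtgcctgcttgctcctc

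This Grb10 window held 40 CpG dinucleotides at a GC content of 81.2%, more than 98.8% of 32851 upstream windows of the same length. Plagl1 had 19, Mest had 14 and Dlk1 had 8, against a median of 6 over all windows. Across the 12 windows the count ran from 0 in the second Meg3 window to 40, and the windows of genes that fell and of the gene that rose overlapped in CpG number. Each motif was searched on both strands. GGGGCCCC was found in the Peg3 window alone among the 12, against 0.889% of all windows. TATAAA was found in the first Meg3 window alone, against 12.4%, and CCAAT in the Peg3 window and the first Meg3 window, against 33.8%.

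Column totals ran from 2305778 to 9541443 estimated counts with a median of 4831091. Sox2 ran from 2.55 to 20.4 CPM in Sox2-positive and from 0 to 1.19 CPM in Sox2-negative libraries. All 10 epithelial markers were higher in the Sox2-positive cells, with summed levels of 4804 to 8038 CPM against 184 to 466 CPM. All 10 markers of dental mesenchyme and fibroblasts were lower, with summed levels of 1537 to 2146 CPM in batch A and 722 to 842 CPM in batch B Sox2-positive libraries against 11635 to 14857 CPM in Sox2-negative ones. Twist1, a mesenchymal transcription factor, was at 0 in every Sox2-positive library. All 7 endothelial markers were lower too, with Sox2-negative sums of 911 to 1338 CPM (batch A) and 249 to 388 CPM (batch B) against 17.3 to 35.4 CPM in Sox2-positive libraries. All 8 leukocyte markers were lower, at 1034 to 1238 CPM and 230 to 332 CPM against 4.32 to 15.7 CPM. Markers of ameloblasts, the enamel-forming epithelial cells, summed to 747 to 940 CPM (batch A) and 593 to 712 CPM (batch B) in Sox2-negative libraries. In Sox2-positive ones they summed to 289 to 349 CPM and 6.82 to 10.1 CPM. Summed pericyte and smooth muscle markers were 501 to 879 CPM and 120 to 167 CPM in batch A Sox2-negative and Sox2-positive libraries. In batch B they were 421 to 484 CPM and 476 to 509 CPM. These sums mix directions: of 6 markers listed 5 were tested over both batches, with 1 higher and 3 lower in Sox2-positive cells. In batch B Sox2-negative and Sox2-positive libraries Rgs5 averaged 81.2 and 1.42 CPM, Kcnj8 33.2 and 7.40 CPM, Acta2 224 and 205 CPM and Tagln 54.6 and 207 CPM. The comparison of populations therefore sets mostly epithelial libraries against libraries that hold mesenchymal, endothelial, blood, ameloblast and other cells. In bulk samples fewer cells of a type and less RNA per cell cannot be told apart. Batch B Sox2-positive libraries also carried skeletal muscle transcripts, with a summed level of 189 to 368 CPM (Myf5 and Pax7 at 0) against at most 14.3 CPM in the other groups. Summed glial markers ran from 840 to 1068 CPM in batch A Sox2-positive libraries and from 24.2 to 76.1 CPM in the others. Batch B Sox2-negative libraries carried 53603 to 62032 CPM of erythroid transcripts against 983 to 1175 CPM in batch A. Libraries 1 and 2 of batch B were set against the rest of their groups. No overlap was found for 23.7% of genes between them and the other 5 Sox2-positive libraries, and for 40.5% between them and the other 2 Sox2-negative libraries, where so few libraries separate many genes by order alone. Results are given without them where they change a call.

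Between the populations, most of the imprinted growth genes were lower in Sox2-positive cells. Over both batches 7 of the 10 fell (H19, Dlk1, Grb10, Plagl1, Zim1, Peg10 and Peg3), 1 rose (Mest), and 2 did not pass the test (Meg3 and Ndn). A call is an adjusted p under 0.05 in edgeR's quasi-likelihood test with Benjamini-Hochberg adjustment over all 17190 genes tested. In that test 57.5% of all genes were called, 32.5% lower and 24.9% higher. The median log2 fold change of the 10 genes was -2.83, against -0.12 over all genes tested. Because the 10 were chosen with earlier results of these data known, these counts and medians are a description. Peg10, and Zim1 in batch A, passed the filter on low counts through the Sox2-negative libraries, where they are high. Of the other 8 genes 5 fell and 1 rose, with a median of -1.68. In batch A, 7 of 9 genes tested fell and 1 rose, where 43.4% of all genes were called, 24.2% lower and 19.3% higher. In batch B, 6 of 10 fell and 1 rose, where 54.7% were called, 27.6% lower and 27.1% higher. The populations differed by unequal amounts in the batches for 3 of the 10 (Zim1 and Plagl1 upward, Grb10 downward), where 7.04% of all genes were called, 2.82% upward and 4.22% downward. Together the 10 genes made up 2549 to 3030 CPM in batch A Sox2-negative and 1202 to 1320 CPM in batch A Sox2-positive libraries. In batch B their sum was 4118 to 4422 CPM and 1766 to 1881 CPM.

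**Figure D1:**
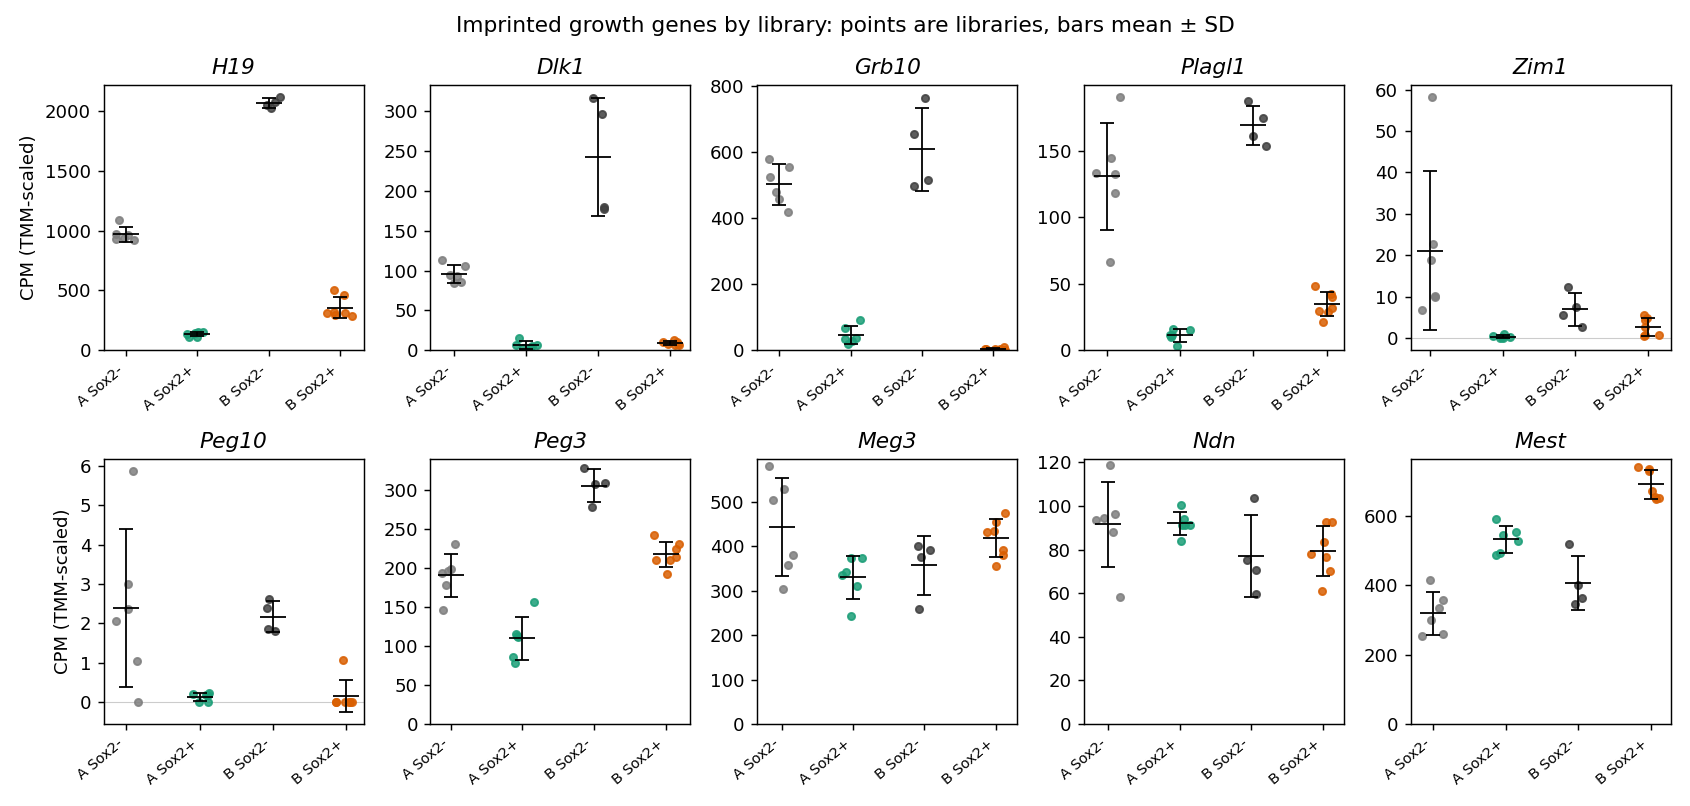
Level of each of the 10 genes in CPM with TMM scaling (linear axes that differ between panels) in the 4 groups; points are libraries and bars are the mean with its SD. H19, Dlk1, Grb10 and Plagl1 are lower in every Sox2-positive library than in any Sox2-negative library of the same batch, Mest is higher, and Ndn overlaps.

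H19, a noncoding RNA that restrains growth and is made in bulk by fetal mesoderm and endoderm, was the most abundant of the 10 in Sox2-negative cells. Its level ran from 919 to 1091 CPM with a median of 952 CPM in batch A Sox2-negative libraries, and from 110 to 155 CPM with a median of 142 CPM in the Sox2-positive ones. In batch B it was 2052, 2024, 2079 and 2118 CPM in the 4 Sox2-negative libraries and ran from 287 to 507 CPM with a median of 313 CPM in the 7 Sox2-positive ones. Positive and negative libraries did not overlap in either batch. The fall was 7.15-fold in batch A (log2 fold change -2.84, SE 0.10, adjusted p = 4.94e-12 by edgeR) and 5.52-fold in batch B (-2.46, SE 0.14, adjusted p = 6.99e-10). These differences did not themselves differ beyond their error (interaction, the log2 difference in batch B minus that in batch A, 0.31, SE 0.18, edgeR adjusted p = 0.369). H19 made up 32.2% to 38.1% of the summed level of the 10 genes in batch A Sox2-negative libraries and 46.4% to 51.3% in batch B ones, but 8.81% to 26.9% in Sox2-positive libraries.

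Grb10, an adaptor protein that binds the insulin and insulin-like growth factor receptors and restrains growth, showed the largest fall by log2 fold change over both batches among the 10 (-5.10, SE 0.47). Its level ran from 418 to 578 CPM with a median of 501 CPM in batch A Sox2-negative and from 18.3 to 90.3 CPM with a median of 36.2 CPM in Sox2-positive libraries. In batch B it was 765, 655, 498 and 515 CPM in Sox2-negative and only 1.79 to 9.82 CPM, with a median of 3.09 CPM, in Sox2-positive libraries. All 4 Sox2-positive and Sox2-negative ranges were separate within their batch, and the batch B Sox2-positive libraries were also all below the batch A Sox2-positive ones. On the log2 scale the difference was -3.45 (SE 0.31, edgeR adjusted p = 2.34e-07) in batch A and -7.07 (SE 0.31, edgeR adjusted p = 1.86e-11) in batch B, falls of 10.9-fold and 134-fold. The interaction was called, at -3.69 (SE 0.46, edgeR adjusted p = 4.37e-06). Grb10 was at 9.12% of its Sox2-negative mean in batch A Sox2-positive libraries and at 0.653% in batch B. Of the 10 mesenchymal markers some were also much lower in batch B by this share: Col1a1, the main collagen of bone and dentin, was at 6.82% and 0.605%, Col3a1 at 21.3% and 0.413%, Postn at 37.5% and 3.41% and Prrx1 at 1.81% and 0.163%. Others were at closer shares, with Vim at 19.6% in both batches, Col1a2 at 19.04% and 18.1%, Pdgfrb at 7.53% and 7.28%, Pdgfra at 22.6% and 13.02%, Lum at 2.36% and 1.48% and Twist1 at 0 in both. Their part in the Grb10 difference was not tested.

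Dlk1, a membrane protein related to Notch ligands that holds mesenchymal precursors undifferentiated, also fell in both batches. Its level ran from 84.7 to 114 CPM with a median of 93.9 CPM in batch A Sox2-negative libraries and from 2.51 to 15.5 CPM with a median of 5.65 CPM in Sox2-positive ones. Batch B Sox2-negative libraries had 296, 317, 178 and 180 CPM, and the level ran from 6.64 to 12.3 CPM with a median of 8.35 CPM in Sox2-positive ones. The populations did not overlap, and within the batch B Sox2-negative group libraries 1 and 2 were the higher ones. On the log2 scale the difference was -3.87 (SE 0.38, edgeR adjusted p = 5.94e-07) in batch A and -4.67 (SE 0.21, edgeR adjusted p = 2.67e-11) in batch B. The interaction of -0.88 (SE 0.42, edgeR adjusted p = 0.232) did not pass the test.

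Meg3, the noncoding RNA encoded beside Dlk1, was called in batch A alone. Its level ran from 304 to 580 CPM with a median of 441 CPM in batch A Sox2-negative and from 244 to 374 CPM with a median of 338 CPM in batch A Sox2-positive libraries. In batch B it was 401, 391, 259 and 376 CPM in Sox2-negative libraries and 356 to 474 CPM with a median of 432 CPM in Sox2-positive ones. The populations overlapped in both batches. In batch A Meg3 fell by 0.42 on the log2 scale (SE 0.16, edgeR adjusted p = 0.0396), a call lost in 7 of the 12 fits that leave out 1 library. In batch B the value was 0.30 (SE 0.13, edgeR adjusted p = 0.0537) and over both batches -0.13, with a 95% interval of -0.38 to 0.11. Per kilobase of annotated exon, the median ratio of Dlk1 to Meg3 was 0.692 in batch A Sox2-negative, 2.28 in batch B Sox2-negative, 0.0509 in batch A Sox2-positive and 0.0616 in batch B Sox2-positive libraries. Every Sox2-negative library had a ratio of at least 0.570 and every Sox2-positive one a ratio of at most 0.132. Meg3 shares 1228 exonic bases with an antisense gene, and the strand setting of the counting is not given in the sources used here, so its level is uncertain to that extent.

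Plagl1, a zinc-finger transcription factor that halts the cell cycle and is known to act on other imprinted genes, fell in both batches. It ran from 66.2 to 190 CPM with a median of 133 CPM in batch A Sox2-negative and from 2.88 to 15.9 CPM with a median of 11.5 CPM in Sox2-positive libraries. Levels in batch B were 188, 161, 175 and 154 CPM in Sox2-negative libraries and ran from 21.6 to 48.4 CPM with a median of 32.0 CPM in Sox2-positive ones. Populations were separate in both batches, and every batch B Sox2-positive library was above every batch A one. On the log2 scale the difference was -3.54 (SE 0.35, edgeR adjusted p = 6.2e-07) in batch A and -2.21 (SE 0.18, edgeR adjusted p = 3.24e-08) in batch B. The interaction, 1.26 (SE 0.39, edgeR adjusted p = 0.0492), sat at the threshold and was lost in 18 of the 23 fits that leave out 1 library.

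Peg3, a large zinc-finger protein tied to growth and maternal behaviour, fell less. Its level ran from 146 to 231 CPM with a median of 194 CPM in batch A Sox2-negative and from 78.2 to 157 CPM with a median of 112 CPM in Sox2-positive libraries, so that the groups overlapped. In batch B the Sox2-negative libraries were at 308, 309, 327 and 278 CPM and the Sox2-positive ones at 192 to 242 CPM with a median of 214 CPM, without overlap. On the log2 scale the difference was -0.79 (SE 0.17, edgeR adjusted p = 0.00117) in batch A and -0.42 (SE 0.10, edgeR adjusted p = 0.00231) in batch B, falls of 1.72-fold and 1.34-fold. The difference between the batches was not called (0.31, SE 0.20, edgeR adjusted p = 0.422).

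Zim1, a zinc-finger gene next to Peg3, was low and varied widely between libraries. It ran from 6.72 to 58.2 CPM with a median of 14.4 CPM in the batch A Sox2-negative libraries and from 0 to 0.949 CPM in the Sox2-positive ones, which held 8 counts in all against 546. The ratio of summed counts, 85.5 with a 95% interval of 43.1 to 199, covers counting error only. In batch B the Sox2-negative libraries were at 5.47, 7.35, 12.2 and 2.55 CPM and the Sox2-positive ones at 0.359 to 5.63 CPM with a median of 2.54 CPM, so these groups overlapped. In batch A Zim1 passed the filter on low counts only through the Sox2-negative libraries (25 to 277 counts each, against 0 to 4), so its call there is a description. The fall was called in batch A (log2 fold change -6.15, SE 0.87, edgeR adjusted p = 3.02e-05) and not in batch B (-1.29, SE 0.66, edgeR adjusted p = 0.109), and over both batches the value was -3.91 (SE 0.84, edgeR adjusted p = 0.000296). The interaction was 4.82 (SE 1.13, edgeR adjusted p = 0.00792). Without batch B libraries 1 and 2 it was 4.52 and no longer called (edgeR adjusted p = 0.125).

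Peg10, a gene derived from a retrotransposon and needed in the placenta, was close to the floor. It ran from 0 to 5.88 CPM with a median of 2.21 CPM in batch A Sox2-negative libraries and from 0 to 0.221 CPM in Sox2-positive ones. In batch B it was at 2.62, 2.40, 1.79 and 1.87 CPM in Sox2-negative libraries, at 0 in 6 Sox2-positive libraries and at 1.08 CPM in library 5. Summed counts were 63 against 4 in batch A (ratio 19.7, 95% interval 7.33 to 74.6) and 60 against 3 in batch B (ratio 25.3, 95% interval 8.25 to 126), counting error only. The filter on low counts left Peg10 out of the batch A fit, where the mean was lower by 2.26 CPM in Sox2-positive libraries (two-sided exact permutation test, p = 0.0152). In batch B Peg10 passed that filter only through the Sox2-negative libraries (11 to 22 counts each, against 0 to 3), so its call there is no independent support. That fit gave -4.10 on the log2 scale (SE 0.98, edgeR adjusted p = 0.0022), and -6.65 without Sox2-positive library 5.

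Mest, an enzyme of the hydrolase fold expressed in embryonic mesoderm and linked to fetal growth, was the gene that rose. Its level ran from 254 to 415 CPM with a median of 316 CPM in batch A Sox2-negative and from 488 to 590 CPM with a median of 535 CPM in Sox2-positive libraries. The batch B levels were 345, 363, 517 and 399 CPM in Sox2-negative libraries and ran from 649 to 740 CPM with a median of 672 CPM in Sox2-positive ones. Each Sox2-positive library was above every Sox2-negative library of its batch. The rise was 1.67-fold in batch A (log2 fold change 0.74, SE 0.12, edgeR adjusted p = 9.56e-05) and 1.78-fold in batch B (0.83, SE 0.12, edgeR adjusted p = 1.97e-05), with an interaction of 0.03 (SE 0.16, edgeR adjusted p = 0.963). Mest shares 912 exonic bases with Copg2 on the other strand, and reads in that stretch could not be assigned without strand.

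Ndn, a MAGE-family protein that restrains the cell cycle in neurons and other differentiating cells, showed similar means in both populations. It ran from 58.3 to 119 CPM with a median of 94.0 CPM in batch A Sox2-negative and from 83.7 to 100.4 CPM with a median of 91.3 CPM in Sox2-positive libraries. Batch B values were 59.4, 75.0, 70.8 and 104 CPM in Sox2-negative libraries and 61.2 to 92.6 CPM with a median of 78.1 CPM in Sox2-positive ones. The groups overlapped throughout. On the log2 scale their difference over both batches was 0.02 (SE 0.12, edgeR adjusted p = 0.898), with a 95% interval of -0.21 to 0.25.

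**Figure D2:**
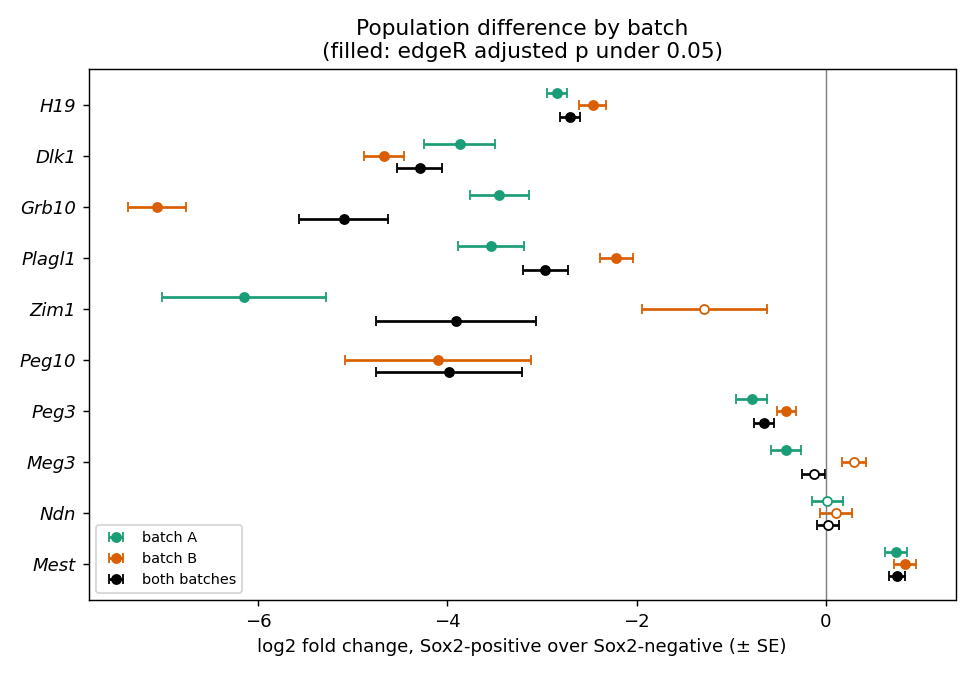
Log2 fold change of each gene, Sox2-positive over Sox2-negative (± SE), in batch A, batch B and both batches; filled points have an edgeR adjusted p under 0.05. Dlk1, Grb10, Plagl1 and H19 lie below -2 in both batches, Mest lies above 0 in each, and Grb10 and Zim1 lie apart between the batches. Peg10 has no batch A point because the filter on low counts left it out.

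Without overlap between the populations, H19, Dlk1, Grb10, Plagl1 and Zim1 were lower and Mest higher in batch A, where 25.2% of genes were without overlap, 14.3% lower and 10.9% higher. In batch B H19, Dlk1, Grb10, Plagl1, Peg3 and Peg10 were lower and Mest higher, against 36.4%, of which 20.3% lower and 16.2% higher. Zim1 in batch A and Peg10 in batch B passed the filter on low counts only through the Sox2-negative libraries. Their lack of overlap is therefore no independent support. Without batch B libraries 1 and 2 the same 8 calls stood over both batches, which were 7 lower and 1 higher.

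The order of the 10 genes by level per kilobase of annotated exon differed between the populations. In batch A Sox2-negative cells H19 came first at 394 CPM per kb, followed by Mest at 81.0 and Grb10 at 55.2, each with a range separate from the next. Ndn, Meg3, Dlk1, Plagl1 and Peg3 came next between 24.8 and 14.3 CPM per kb and overlapped with their neighbours, and Zim1 and Peg10 came last. In batch A Sox2-positive cells Mest came first at 135 CPM per kb and H19 second at 54.8, ahead of Ndn at 24.9 and Meg3 at 18.2, all with separate ranges. In batch B Sox2-negative cells H19 was at 841 CPM per kb, Mest at 103, Grb10 at 66.9 and Dlk1 at 42.9, the last pair overlapping. In batch B Sox2-positive cells Mest at 175 and H19 at 145 CPM per kb overlapped, and Grb10 stood eighth at 0.437.

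The second comparison set batch B against batch A within each population. In Sox2-negative cells 3 of the 10 genes were higher in batch B (H19, Dlk1 and Peg3) and none lower, where 11.2% of all genes were called, 5.85% higher and 5.35% lower. Among the 10, 1 further gene (Mest) had an unadjusted p under 0.05 upward, at 0.00926, and Zim1 downward, at 0.0474. In Sox2-positive cells 5 were higher (Zim1, Plagl1, H19, Peg3 and Mest) and 1 lower (Grb10), where 10.4% were called, 4.85% higher and 5.54% lower. Levels did not overlap between the batches for those 3 genes in Sox2-negative cells, against 8.87% of all genes (4.56% higher, 4.31% lower). In Sox2-positive cells H19, Peg3, Mest and Plagl1 were higher and Grb10 lower without overlap, against 8.56% (3.9% higher, 4.66% lower). Day, mice and the makeup of the sorted cells, including the lower endothelial and leukocyte sums and the higher erythroid sum of batch B Sox2-negative libraries, changed together between the batches and cannot be told apart.

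H19 was 2.13-fold higher in batch B Sox2-negative (log2 fold change 1.09, SE 0.14, edgeR adjusted p = 3.42e-06) and 2.65-fold higher in batch B Sox2-positive libraries (1.40, SE 0.12, edgeR adjusted p = 4.61e-09). Within batch B, Sox2-positive libraries 1 and 2 had 465 to 507 CPM of H19 and the other 5 had 287 to 324 CPM. H19 is abundant in developing skeletal muscle, some of whose markers were present in batch B Sox2-positive libraries. Myog, a muscle transcription factor, averaged 51.7 CPM there and 0.378 CPM in batch A. Des averaged 4.16 and 3.04 CPM, and Myf5 and Pax7 were at 0 in both. Summed muscle markers were 189 to 191 CPM in libraries 1 and 2 and 200 to 368 CPM in the other 5. Between these libraries 23.7% of all genes did not overlap. The part of muscle transcripts in the H19 difference between batches was not tested.

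Peg3 was higher in batch B in both populations, by 0.68 (SE 0.15, edgeR adjusted p = 0.00266) in Sox2-negative and 0.99 (SE 0.13, edgeR adjusted p = 5.31e-06) in Sox2-positive cells. Dlk1 was 2.53-fold higher in batch B Sox2-negative cells (log2 fold change 1.34, SE 0.29, edgeR adjusted p = 0.00301). Without batch B libraries 1 and 2 both Sox2-negative calls were lost, at 0.90 for Dlk1 (edgeR adjusted p = 0.228) and 0.67 for Peg3 (edgeR adjusted p = 0.0528). In Sox2-positive cells Dlk1 did not pass the test (0.46, SE 0.29, edgeR adjusted p = 0.407), but did without batch A library 6, which had the highest level (0.96, edgeR adjusted p = 0.0109). Ndn and Peg10 passed in neither population, with values of -0.25 and -0.14 in Sox2-negative and -0.22 and -0.19 in Sox2-positive cells.

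Grb10 and Plagl1 differed between the batches in Sox2-positive cells in opposite directions. Grb10 was 10.7-fold lower in batch B (log2 fold change -3.42, SE 0.34, edgeR adjusted p = 3.14e-08), while Plagl1 was 3.09-fold higher (1.63, SE 0.27, edgeR adjusted p = 0.000114). In Sox2-negative cells neither was called (0.28 with edgeR adjusted p = 0.64 for Grb10 and 0.37 with edgeR adjusted p = 0.447 for Plagl1). Zim1 had 8 counts in all in batch A Sox2-positive libraries, near the floor, so the size of its batch difference is uncertain. It was higher in batch B Sox2-positive cells by 3.21 on the log2 scale (SE 0.81, edgeR adjusted p = 0.00899), a call lost without batch B libraries 1 and 2 (3.03, edgeR adjusted p = 0.0505). Mest was higher by 0.38 there (SE 0.11, edgeR adjusted p = 0.0213), a call lost with scaling to library totals (0.29, edgeR adjusted p = 0.104) and without batch A library 6 (0.36, edgeR adjusted p = 0.0543).

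**Figure D3:**
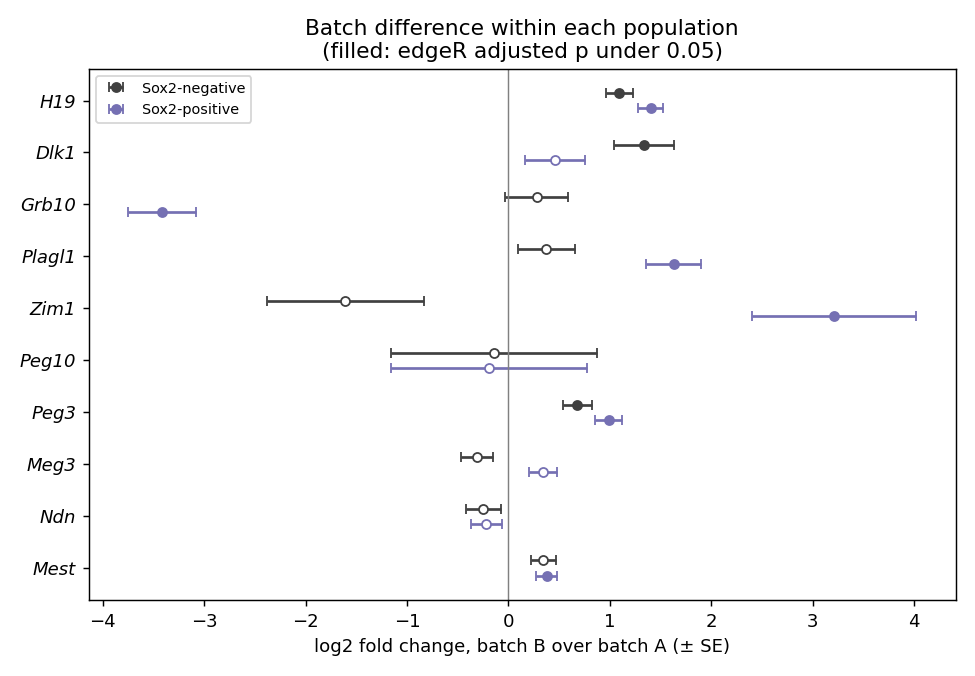
Log2 fold change of each gene, batch B over batch A (± SE), in Sox2-negative and Sox2-positive cells; filled points have an edgeR adjusted p under 0.05. H19 and Peg3 lie above 0 in both populations, and Grb10 lies at -3.42 in Sox2-positive cells against 0.28 in Sox2-negative ones.

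Each gene's level in Sox2-positive cells was also expressed as a share of its Sox2-negative mean, beside the same share for the mesenchymal markers, whose summed level fell with the genes. The markers had a median share of 13.3% (0 to 37.5%) in batch A and 2.45% (0 to 19.6%) in batch B. H19 was at 13.9% and 17.2%, Plagl1 at 8.56% and 20.5%, Dlk1 at 6.73% and 3.72%, Peg10 at 5.51% and 7.09%, and Zim1 at 1.34% and 39.0%. Peg3 at 57.7% and 71.3%, Meg3 at 74.5% and 117%, Ndn at 100.4% and 102.6% and Mest at 167% and 170.0% were above every mesenchymal marker in both batches. Of the 6 genes at lower shares, Plagl1 and Zim1 were above the highest marker in batch B. The part of mesenchymal RNA in these shares was not tested.

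**Figure D4:**
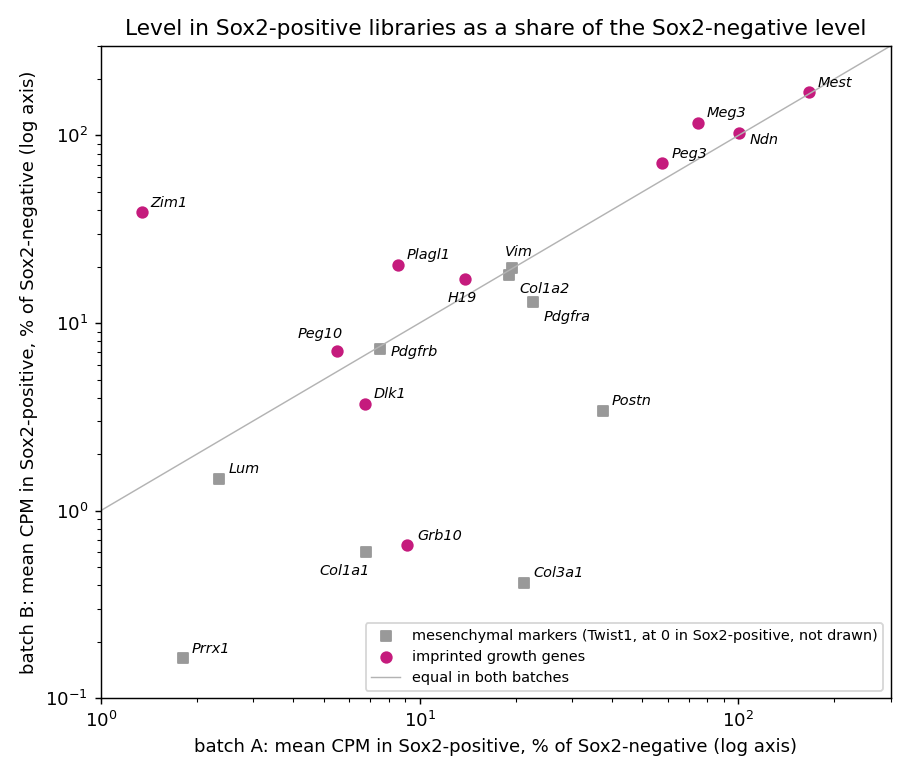
Mean CPM in Sox2-positive libraries as a percent of the Sox2-negative mean, batch A on the horizontal and batch B on the vertical log axis, for the 10 genes (circles) and the mesenchymal markers (squares); the line marks equal shares. Mest, Ndn, Meg3 and Peg3 lie above 50% in both batches, beyond all markers, and Grb10 lies near Col1a1 at under 1% in batch B.

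Neighbours in the same imprinted clusters were mixed. Of 22 listed neighbours 20 were tested over both batches, of which 9 were lower and 1 higher, where 32.5% and 24.9% of all genes were. Their median log2 fold change was -0.26. Of the lower ones, Dio3, Asb4 and Ddc passed the filter on low counts mainly through the Sox2-negative libraries, so their calls are a description. Asb4 had 16 and 3 summed counts in Sox2-positive libraries of batches A and B, against 281 and 196 in Sox2-negative ones. Ddc had 9 and 51 against 128 and 183. Igf2, the fetal growth factor next to H19, had Sox2-negative means of 1172 CPM (batch A) and 1908 CPM (batch B) and fell 29.1-fold and 16.4-fold in Sox2-positive libraries (-4.52 on the log2 scale over both batches, SE 0.13, edgeR adjusted p = 5.82e-21). The median ratio of H19 to Igf2 per kilobase was 1.83 and 2.54 in Sox2-negative against 7.82 and 7.04 in Sox2-positive libraries of batches A and B, with no overlap. Snrpn, a splicing protein gene in the cluster of Ndn, was the neighbour that rose, by 1.42 (SE 0.18, edgeR adjusted p = 1.62e-07). Rian, the noncoding RNA downstream of Meg3, did not pass the test (0.11, SE 0.20, edgeR adjusted p = 0.667), while Mirg, a further noncoding RNA of that cluster, fell by 1.02 (SE 0.28, edgeR adjusted p = 0.00298). Mirg was called in batch A (-1.48, edgeR adjusted p = 0.0164) but not in batch B (-0.39, edgeR adjusted p = 0.239). Dio3, the gene of an enzyme that inactivates thyroid hormone at the far end of the cluster, had 257 and 585 summed counts in Sox2-negative libraries of batches A and B against 0 and 2 in Sox2-positive ones. Sgce, which starts 0.098 kb from Peg10, fell by 0.90 (SE 0.19, edgeR adjusted p = 0.000271). It was called in batch B (-1.07, edgeR adjusted p = 0.00178) but not in batch A (-0.68, edgeR adjusted p = 0.0677). Peg10 fell by 3.98 (SE 0.77), but passed the filter on low counts only through the Sox2-negative libraries. Its call is therefore no independent support. Sgce, Rian, Mirg, Dio3, Asb4 and Ddc were chosen after their values were seen.

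Of 26 other imprinted genes 23 were tested, of which 9 were lower and 6 higher, near the shares over all genes (32.5% and 24.9%). Their median log2 fold change was -0.03. Among the lower ones Sfmbt2 passed the filter on low counts mainly through the Sox2-negative libraries. Its call is therefore a description, and it was named after its values were seen. Dcn, the collagen-binding proteoglycan decorin, fell by 5.50 (SE 0.24). Igf2r, the receptor that clears Igf2, fell by 1.87 (SE 0.10), its antisense RNA Airn by 1.41 (SE 0.25) and the ubiquitin ligase gene Ube3a by 1.14 (SE 0.13). Nnat, which encodes the small membrane protein neuronatin, rose by 4.68 on the log2 scale (SE 0.18, edgeR adjusted p = 7.45e-18), to Sox2-positive means of 523 CPM (batch A) and 661 CPM (batch B), rises of 24.1-fold and 28.9-fold. Blcap, in whose intron Nnat lies, rose by 1.04 (SE 0.17), and H13, a signal peptide peptidase gene, by 0.55 (SE 0.11). Reads of Igf2r and Airn, and of Blcap and Nnat, where these overlap on opposite strands could not be told apart without strand. Cdkn1c, a cell-cycle inhibitor, fell by 0.69 (SE 0.09).

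Among 7 genes that maintain imprints in dividing cells, 6 were tested, 2 rose and 3 fell, where 57.5% of all genes were called. Uhrf1, which brings the maintenance methyltransferase to replicated DNA, rose by 0.63 (SE 0.16) and the insulator protein gene Ctcf rose by 0.45 (SE 0.17). The maintenance methyltransferase gene Dnmt1 fell by 0.99 (SE 0.18), Trim28 by 0.59 (SE 0.08) and the zinc-finger gene Zfp445 by 0.65 (SE 0.15). Zfp57, which binds methylated imprinting control regions, had a value of -0.19 (SE 0.28) and was not called. Its value was -0.74 in batch A and 0.58 in batch B, neither called (edgeR adjusted p = 0.156 and 0.0698). Ctcf was called in batch A (0.63, edgeR adjusted p = 0.0228) but not in batch B (0.31, edgeR adjusted p = 0.302). Uhrf1, Dnmt1 and Zfp445 differed between the batches: Uhrf1 averaged 93.7 and 214 CPM in batch A but 111 and 112 CPM in batch B Sox2-negative and Sox2-positive libraries, and Dnmt1 averaged 94.3 and 73.1 CPM in batch A but 207 and 65.2 CPM in batch B. Zfp445 averaged 123 and 58.5 CPM in batch A (log2 fold change -1.07, SE 0.16) but 102 and 93.4 CPM in batch B (-0.06, SE 0.16, edgeR adjusted p = 0.760).

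The genes most like each of the 10 were those with the smallest root mean square difference of centred log2 CPM over the 23 libraries, which share the population difference, the batches and depth. H19 and Plagl1 were both closest to Cdh11, a mesenchymal cadherin, at 0.415 and 0.468. Dlk1 was closest to Igf2 at 0.565, then Wif1 and Thy1, and Grb10 to Col1a1 at 0.620, then Cxcl12 and Adgra2. Mest was closest to Klhl9 at 0.200, Ndn to Selenof at 0.219, Meg3 to Rbm15 at 0.247 and Peg3 to the mitochondrial ribosomal RNA mt-Rnr2 at 0.254. For Peg10 (Sag, 0.653) and Zim1 (Adamts9, 0.987) the distance was larger, and their counts were the lowest of the 10.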

How the data were processed

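The authors deposited 1 table of estimated counts (expected counts) per gene, not scaled to a common depth. FastQC, Trimmomatic, Salmon and mm10 are named per the submitters' processing notes; their settings, the annotation and the strand setting are not given in the sources used here. Identifiers were matched without version to GENCODE M21 (54094, or 99.5%), and 0 columns of sample values were left unused. Counts were rounded for the tests. CPM and tests used edgeR 4.0.16 (R 4.3.3) with TMM scaling, the filterByExpr filter (minimum count 10) over the groups fitted and the quasi-likelihood F test. Over both batches, batch was a covariate. Each batch was also fitted alone, and 1 fit with a mean for each of the 4 groups (23 libraries) gave the interaction and batch differences. P-values were adjusted over all genes tested. Each SE was derived as the absolute log2 fold change divided by the square root of the test's F statistic. Intervals of 95% are normal around the fit's estimate with that SE, or exact for ratios of counts. Scripts were tested on simulated data.

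Alternatives were RLE size factors, library totals, 2 other filters, DESeq2 1.42.0, limma 3.58.1 (voom), a replicate block, and leaving out libraries. Counting floors are 3 counts and, like intervals of counts, cover counting error only, because PCR copies of a molecule are not told apart. The smallest chi-square per degree of freedom between libraries of a group was 5.19, so each library counted once. Named genes were all 10 members, up to 5 highest and 5 lowest of the 2 lists of imprinted genes called alike in both batches at 10 CPM or more, Igf2, Cdkn1c, the imprint maintenance genes tested, and the 3 likest genes of each member. Members and lists were chosen with earlier results of these data known.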

Additional observations from a re-analysis of the deposited data

Results flagged for a closer look

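Within groups of 4 to 7 libraries, 1 library lay far from the others by Dixon's test in 5 of 40 gene-by-group sets, where chance gives about 5%. Dlk1 was 15.5 CPM in batch A Sox2-positive library 6, against at most 6.44 CPM in the other 5. Zim1 was 58.2 CPM in batch A Sox2-negative library 5. Grb10 was 9.82 CPM in batch B Sox2-positive library 3, Peg10 was 1.08 CPM in library 5 of the same group, and H19 was 1091 CPM in batch A Sox2-negative library 2.

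By edgeR's interaction test the batches differed in the size of the population difference for 3 of the 10 genes: Grb10 (log2 -3.69), Zim1 (4.82) and Plagl1 (1.26). Of all genes 7.04% were called. The Plagl1 call was lost in 18 of 23 fits that leave out 1 library. Only the Grb10 call held with a replicate block and without batch B libraries 1 and 2. Among the genes of the other lists named by rule, it also differed for Uhrf1 (-1.18), Dnmt1 (-1.30), Zfp445 (0.94) and Igf2 (0.77). Over the whole lists 1 of 20 cluster neighbours tested was called upward and 1 downward. Of 23 other imprinted genes 0 were called, and of 6 imprint maintenance genes 1 upward and 2 downward. For Igf2 the direction was the same in both batches, with a smaller fall in batch B.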

How the results depend on the processing

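Over both batches, the 8 calls among the 10 genes held under every alternative that tested them. Peg10 was not tested with a mean of at least 10 counts. It passed the filter on low counts only through the Sox2-negative libraries, so its call under the alternatives is no independent support. With library totals in place of TMM the median log2 fold change of all genes moved from -0.12 to 0.0034, no population difference among the 10 changed direction, and genes called became 4966 higher and 5051 lower. Batch differences were then called 661 higher and 1388 lower in Sox2-negative cells and 666 higher and 1214 lower in Sox2-positive cells.

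Same-numbered libraries were not treated as pairs in the main fits, because the labels do not tie libraries to mice. Their correlations ran from -0.0212 to 0.0444, highest for numbers 1 and 2 of batch B, and 1 of 10 correlated best with its own number. Such values cannot show whether same-numbered libraries shared mice. With a replicate block the interaction called 557 genes, 1 of them (Grb10) a member, and Plagl1 (1.20, adjusted p = 0.196) and Zim1 (4.22, adjusted p = 0.0803) were not called by edgeR. Without batch B libraries 1 and 2 it called 481 genes, again with 1 member, and the batch differences called 754 genes in Sox2-negative and 1159 in Sox2-positive cells. By limma-voom the latter was 3313 genes. By DESeq2 the interaction called 804 genes higher and the Sox2-negative batch difference 1515 lower.

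The Meg3 call in batch A was lost with library totals (-0.34), without a filter (-0.36) and with the block (-0.39). In batch B it was gained with totals (0.38), without a filter (0.34), with a mean of at least 10 counts (0.31) and without libraries 1 and 2 (0.49), and its interaction was gained under 5 settings (0.66 to 0.72). Zim1 in batch B was called by limma-voom (-1.62).

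Signs turned only in values not called: Ndn over both batches with the block (-0.0033), and in batch B without libraries 1 and 2 (-0.0149); the interaction of Peg10 with totals (0.0311) and without libraries 1 and 2 (0.78), of Mest (-0.0075 with the block, -0.13 without those libraries) and of Ndn (-0.0902 and -0.0640); and the Peg10 batch difference in Sox2-negative cells by limma-voom (0.55) and in Sox2-positive cells without libraries 1 and 2 (0.41).

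Leaving out 1 library at a time gave 9621 to 10091 genes called over both batches, 5805 to 6300 in batch A, 8005 to 8794 in batch B, 938 to 1254 for the interaction, and 1331 to 1989 and 1497 to 1892 for the batch differences. Members called were 8 in each such fit, 7 to 8, 7 to 8, 2 to 3, 3 to 4 and 6. Ndn ran from -0.0341 to 0.15 over both batches, from -0.0917 to 0.10 in batch A and from -0.0092 to 0.28 in batch B. Interactions ran from -2.57 to 0.21 for Peg10, -0.0591 to 0.17 for Mest and -0.0836 to 0.20 for Ndn, and Peg10 batch differences from -0.39 to 0.35 and from -2.70 to 0.0815. The causes were not tested. Sox2-positive levels of Peg10 in both batches and of Zim1 in batch A lay near the floor of 3 counts, so differences among them were not detectable at this depth.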
